A study of Homo sapiens with 5 samples.

Results

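The 95 potassium channel genes described here are the protein-coding genes of the GENCODE annotation on hg19 whose symbol begins with KCN, out of 20163 protein-coding genes in all. The symbols alone decided which genes belong, and no binding value entered that rule. The group itself was chosen with earlier results of these data known. The list holds more than pore-forming channels. It takes in 40 voltage-gated pore subunits (KCNA, KCNB, KCNC, KCND, KCNF, KCNG, KCNH, KCNQ, KCNS and KCNV). Another 12 are auxiliary subunits of those channels (KCNAB, KCNE and KCNIP), 15 are inward rectifiers (KCNJ) and 15 two-pore-domain leak channels (KCNK). There are 8 pore subunits of families named for activation by calcium or sodium (KCNMA, KCNN, KCNT and KCNU). The rest are 4 auxiliary subunits of the large-conductance calcium-activated BK channel (KCNMB) and the regulator KCNRG.

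Binding sites of steroidogenic factor-1 (SF-1, the nuclear receptor encoded by NR5A1) were mapped by chromatin immunoprecipitation and sequencing in H295R/TR SF-1 cells. These descend from H295R, an established human adrenocortical tumor line, and make additional SF-1 under doxycycline. Chromatin was taken at basal SF-1 dosage, without doxycycline, or at overexpressed dosage, after 3 days with it, and each was precipitated with the Millipore or the Perseus antibody to SF-1. The authors pooled 3 libraries for each combination and called 1 list of peaks, with 4393 peaks (basal Millipore), 11910 (overexpressed Millipore), 6616 (basal Perseus) and 7453 (overexpressed Perseus). The 2 input libraries have no list, the number of reads behind each list is unknown, and 1 list per group leaves no replicate error, so no test was made and the 95% Wilson intervals below cover counting error over genes or peaks only.

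Potassium channels set the resting potential of adrenocortical cells and so govern the calcium entry that drives steroid output. In the outer adrenal cortex, leak channels of the KCNK family, chiefly KCNK3 (TASK-1) and KCNK9 (TASK-3), and the inward rectifier KCNJ5 keep the membrane hyperpolarized, and mutations of the KCNJ5 pore are known in aldosterone-producing adenomas. KCNK2 (TREK-1) carries a background current in cortisol-producing cells, and KCNMA1 is the pore of the BK channel. Many neuronal channel genes are held silent outside the nervous system by the repressor NRSF/REST, which binds a long consensus sequence.

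SF-1 binds DNA as a monomer at a short sequence. The consensus searched here was NCAAGGNCN on either strand with no mismatch, where the first letter is C or T, the seventh is C or T and the last is A or G. A stricter search used the 8-letter core CAAGGTCA, which overlaps the longer consensus and leaves its first letter free. The NRSF/REST consensus was searched on either strand allowing 4 mismatches over its 19 fixed positions. The sequences below are peaks beside members that the results turn on, written 5′ to 3′ on the plus strand of GRCh37, with matches in capitals. The peaks at KCNH7 and KCNN4 hold NRSF/REST matches and were found with the Millipore antibody at both dosages. The peaks at KCNT1, KCNC2 and KCNH2 hold the SF-1 consensus. The KCNN1 peak, found in all 4 lists, holds the SF-1 core only, and the KCNJ5 peak lies past the end of the inward rectifier gene. These last 2 sequences were added after their values were seen.
KCNH7, chr2:163697165-163697464: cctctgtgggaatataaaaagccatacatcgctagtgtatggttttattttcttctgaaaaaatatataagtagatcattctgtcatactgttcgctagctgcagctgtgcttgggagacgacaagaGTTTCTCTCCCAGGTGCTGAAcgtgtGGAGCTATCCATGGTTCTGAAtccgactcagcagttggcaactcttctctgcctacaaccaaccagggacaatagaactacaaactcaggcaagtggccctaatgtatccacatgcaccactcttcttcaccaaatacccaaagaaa
KCNN4, chr19:44293266-44293565: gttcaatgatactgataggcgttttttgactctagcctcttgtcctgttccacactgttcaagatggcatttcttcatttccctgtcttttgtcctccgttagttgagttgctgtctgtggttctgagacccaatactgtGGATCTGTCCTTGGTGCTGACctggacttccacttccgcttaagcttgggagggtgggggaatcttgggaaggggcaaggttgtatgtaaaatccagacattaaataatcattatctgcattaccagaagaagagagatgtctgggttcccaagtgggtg
KCNT1, chr9:138597301-138597449: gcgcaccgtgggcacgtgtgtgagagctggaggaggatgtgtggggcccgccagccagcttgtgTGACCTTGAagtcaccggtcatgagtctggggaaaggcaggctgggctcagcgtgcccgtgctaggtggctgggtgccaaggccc
KCNC2, chr12:75514051-75514299: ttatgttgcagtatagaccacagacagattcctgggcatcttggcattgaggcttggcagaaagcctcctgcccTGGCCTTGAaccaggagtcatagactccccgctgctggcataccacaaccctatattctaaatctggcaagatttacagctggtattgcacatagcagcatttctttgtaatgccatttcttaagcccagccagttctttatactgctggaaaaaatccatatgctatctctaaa
KCNH2, chr7:150598701-150598949: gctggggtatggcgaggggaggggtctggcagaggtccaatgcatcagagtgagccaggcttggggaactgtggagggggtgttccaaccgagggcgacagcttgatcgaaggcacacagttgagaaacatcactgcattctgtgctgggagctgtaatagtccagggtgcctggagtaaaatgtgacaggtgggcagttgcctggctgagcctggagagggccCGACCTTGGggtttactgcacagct
KCNN1, chr19:18053551-18053699: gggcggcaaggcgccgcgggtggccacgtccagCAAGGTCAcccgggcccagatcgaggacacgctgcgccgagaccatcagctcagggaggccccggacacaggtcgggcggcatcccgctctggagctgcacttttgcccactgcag
KCNJ5, chr11:128795000-128795299: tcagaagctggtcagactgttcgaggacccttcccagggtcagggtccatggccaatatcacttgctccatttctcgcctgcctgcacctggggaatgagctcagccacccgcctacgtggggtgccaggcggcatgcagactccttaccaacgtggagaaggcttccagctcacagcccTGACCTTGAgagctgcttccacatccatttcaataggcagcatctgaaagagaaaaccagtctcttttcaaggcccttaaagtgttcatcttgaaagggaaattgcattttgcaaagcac
The 2 matches upstream of KCNH7 had 4 and 3 mismatches to the NRSF/REST consensus, and the match upstream of KCNN4 had 3. The SF-1 matches at KCNT1 and KCNJ5 read as the minus strand copy TGACCTTGA, which also contains the core. Those at KCNC2 and KCNH2 contain the consensus but not the core.

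Few potassium channel genes had a peak at the promoter. Across all 4 lists, 10 of 95 members (10.5%) had a peak centre within 1 kb of the gene start in at least 1 list, beside 19.8% of all protein-coding genes. KCNJ8, the pore of a vascular ATP-sensitive channel, and KCNN1, a small-conductance calcium-activated channel, had one in 2 lists, and KCNH2, KCNH3, KCNH7, KCNIP4, KCNJ14, KCNK3, KCNMB2 and KCNT1 in 1 list. No member had one in 3 or 4 lists, where 1.98% and 0.184% of all coding genes did.

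By list, the basal Millipore list had no peak within 1 kb of any member (0 of 95, interval 0 to 3.89%), where 1.02% of all coding genes had one. The overexpressed Millipore list had peaks at 4 members, 4.21% (1.65 to 10.3), against 8.19% of all coding genes. The basal Perseus list had peaks at 3 members, 3.16% (1.08 to 8.88), against 9.56%. The overexpressed Perseus list had peaks at 5 members, 5.26% (2.27 to 11.7), against 10.5%. The member share was below that of all coding genes in each list, and only the basal Perseus interval excluded it.

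Within 10 kb of the start, 25 of 95 members (26.3%) had a peak in at least 1 list, against 35.2% of all coding genes. The counts were 5 members (5.26%, 2.27 to 11.7) in the basal Millipore list, where 4.38% of all coding genes had a peak, and 13 members (13.7%, 8.17 to 22.0) in the overexpressed Millipore list, against 19.0%. They were 11 members (11.6%, 6.59 to 19.6) in the basal Perseus list, against 15.5%, and 14 members (14.7%, 8.99 to 23.2) in the overexpressed Perseus list, against 17.1%. Each of these intervals contained the share of all coding genes.

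Within 100 kb, 68 members (71.6%) had a peak in at least 1 list, against 79.9% of all coding genes. The basal Millipore list had peaks near 30 members, 31.6% (23.1 to 41.5), and near 30.7% of all coding genes. With SF-1 overexpressed and the same antibody it was 50 members, 52.6% (42.7 to 62.4), against 61.5%. With the Perseus antibody it was 32 members, 33.7% (25.0 to 43.7), against 47.2% at basal dosage, and 36 members, 37.9% (28.8 to 47.9), against 51.2% at overexpressed dosage. Both Perseus intervals lay below the share of all coding genes.

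Members differ from other genes in ways that bear on these counts. Their promoters, taken as 1000 bp centred on the start, had a median GC content of 62.8% (34.9 to 80.7), against 59.2% for all coding genes. All coding genes were therefore split into 5 classes of promoter GC and averaged with the members' numbers per class as weights. Weighted in this way, the shares at 1 kb became 0.978%, 8.90%, 10.4% and 11.7% in the basal Millipore, overexpressed Millipore, basal Perseus and overexpressed Perseus lists, and at 10 kb 4.48%, 20.6%, 16.5% and 18.6%. In every list but the basal Millipore one, this moved the comparison slightly further above the members. In the class of highest promoter GC, which holds 35 members, the basal Perseus list had a peak within 1 kb of 1 member, where 13.8% of the coding genes of that class had one. In the class of lowest promoter GC the order was the other way, with 2 of 17 members against 1.47%, and in the 3 classes between the list had a peak at 0 members.

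Members also stood in emptier surroundings. The median number of other coding starts within 100 kb was 1.00 for members and 3.00 for all coding genes. At 100 kb the shares of all coding genes weighted to the members' promoter GC were 31.3%, 63.4%, 48.2% and 52.5%, in the same order of lists. The basal Millipore share lay inside the members' interval. The overexpressed Millipore share and both Perseus shares lay above theirs, whose upper limits were 62.4%, 43.7% and 47.9%. Weighted instead to the members' number of neighbouring starts, the shares of all coding genes were 28.0%, 55.8%, 41.5% and 45.0%, each inside the members' interval. At 1 kb this weighting gave 0.929%, 7.86%, 9.15% and 10.3%, and the basal Perseus share stayed above the members' interval of 1.08 to 8.88. At 10 kb it gave 3.90%, 16.9%, 14.3% and 16.0%. This second weighting was chosen after the data were seen, and the part of the surroundings in the counts was not tested.

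**Figure D1:**
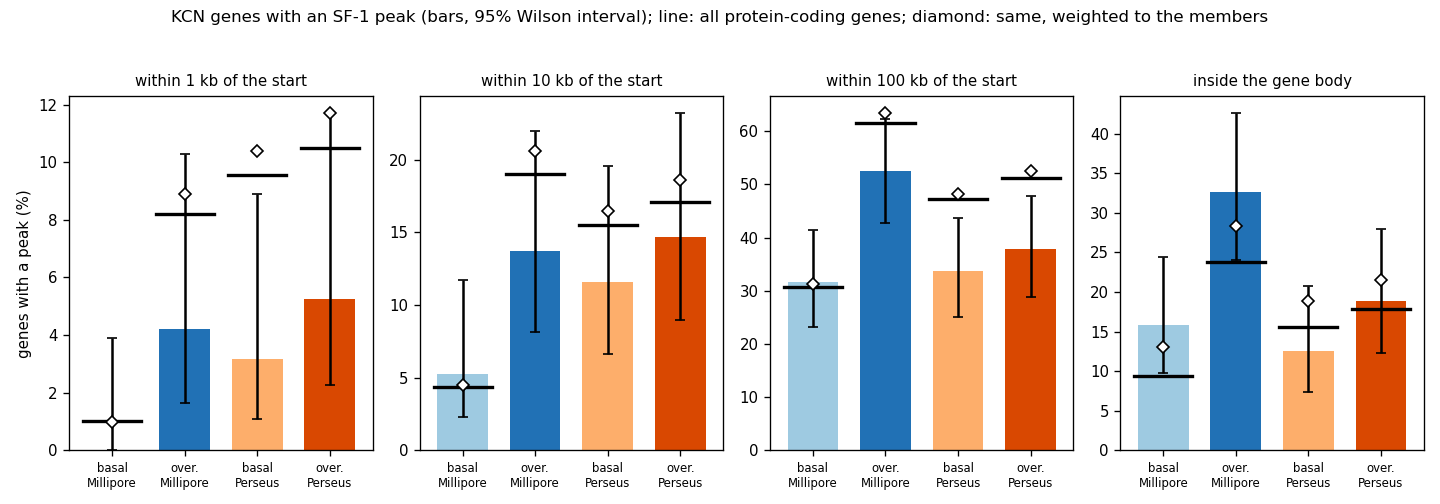
Percent of the 95 KCN genes with an SF-1 peak (bars) in each of the 4 lists, within 1, 10 or 100 kb of the gene start or inside the gene body, with 95% Wilson intervals. The black line is the share of all protein-coding genes and the diamond is that share weighted to the members' promoter GC, or gene length for the body. At 1 kb the members sit below the line in every list, from 0% to 5.26%, and inside the body both Millipore bars, 15.8% and 32.6%, sit above it.

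Inside the genes the picture was different. In all, 40 members (42.1%) had a peak inside the gene body in at least 1 list, against 38.9% of all coding genes. With the Millipore antibody it was 15 members (15.8%, 9.81 to 24.4) at basal dosage, against 9.41%, and 31 members (32.6%, 24.0 to 42.6) at overexpressed dosage, against 23.8%. With the Perseus antibody it was 12 members (12.6%, 7.38 to 20.8), against 15.6%, and 18 members (18.9%, 12.3 to 28.0), against 17.9%. Both Millipore intervals lay above the share of all coding genes, by a narrow margin. Members are long genes, with a median of 43.5 kb against 27.2 kb. Weighted to the members' length classes, the shares of all coding genes were 13.0%, 28.3%, 18.9% and 21.5%, all inside the members' intervals.

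The longest class, over 90.3 kb, held 35 members and most of these genes. It gave 11 of the 15 members with a body peak in the basal Millipore list, 22 of 31 in the overexpressed Millipore list, 9 of 12 in the basal Perseus list and 12 of 18 in the overexpressed Perseus list. Within this class 62.9% of members (46.3 to 76.8) had a body peak in the overexpressed Millipore list. Of its coding genes 44.4% had one, so here the interval lay above the share of the class. The class runs up to 2474 kb, and gene length was not matched within it. In the other lists the member share was 31.4% against 26.1% (basal Millipore), 25.7% against 30.3% (basal Perseus) and 34.3% against 33.7% (overexpressed Perseus). Per base, the bodies of the members were no richer in peaks than those of all coding genes. They held 1.51 peaks per Mb against 1.72 in the basal Millipore list, 4.84 against 5.37 in the overexpressed Millipore list, 1.44 against 2.88 in the basal Perseus list and 1.96 against 3.37 in the overexpressed Perseus list. Nearly all lay in introns, 18 of 20, 58 of 64, 18 of 19 and 24 of 26 in the same order.

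**Figure D2:**
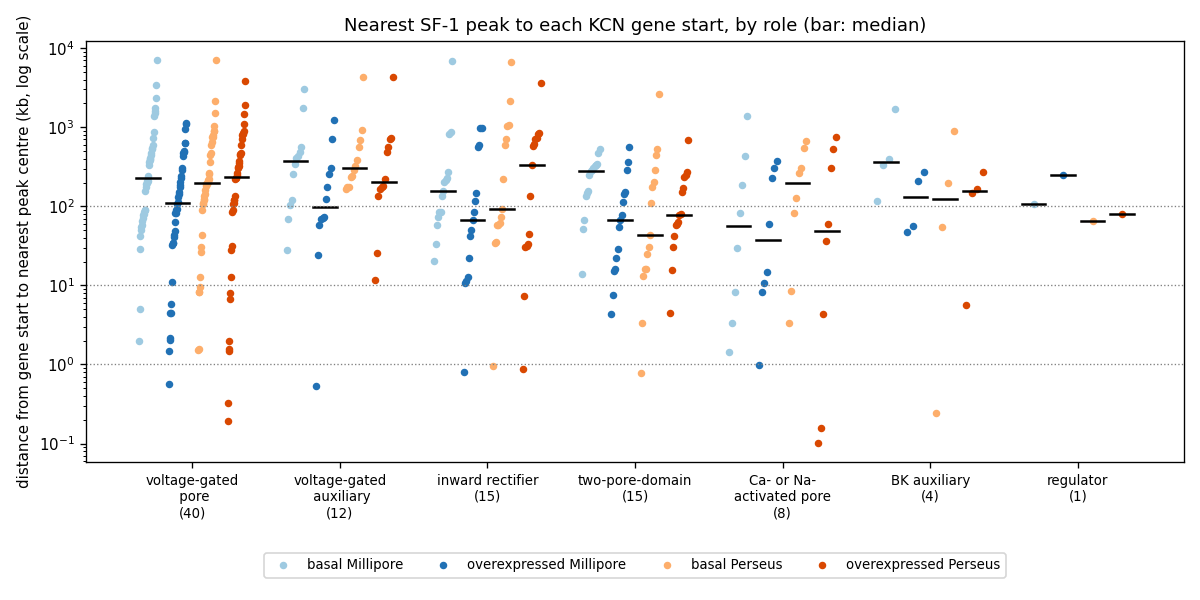
Distance from each KCN gene start to the nearest peak centre on its chromosome, in kb on a log scale, by role of the gene (number of genes in brackets) and list. Each point is 1 gene, bars are medians and dotted lines mark 1, 10 and 100 kb. The 8 pore subunits of families named for activation by calcium or sodium have the lowest median in 3 lists. It is 56.2 kb in the basal Millipore, 37.2 kb in the overexpressed Millipore and 48.2 kb in the overexpressed Perseus list. In the basal Perseus list their median is 194 kb, and the two-pore-domain genes have the lowest, 43.4 kb.

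Over all members the median distance to the nearest peak was 215 kb in the basal Millipore list, close to the 209 kb of all coding genes. It was 84.5 kb against 62.2 kb in the overexpressed Millipore list, 193 kb against 114 kb in the basal Perseus list and 173 kb against 94.0 kb in the overexpressed Perseus list. The number of members per role is small, and the differences between roles below are descriptions without a test.

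Among the 40 voltage-gated pore subunits, 13 (32.5%) had a peak within 10 kb in any list, close to the 35.2% of all coding genes. The KCNH family, to which the cardiac repolarizing channel KCNH2 (HERG) belongs, held 6 of those 13: KCNH2, KCNH3, KCNH4, KCNH6, KCNH7 and KCNH8. By list, KCNH genes with such a peak numbered 1, 4, 2 and 4 of 8. The order is basal Millipore, overexpressed Millipore, basal Perseus and overexpressed Perseus. In the same order, 4.38%, 19.0%, 15.5% and 17.1% of all coding genes had a peak within 10 kb. The KCNH family was singled out after its values were seen, and its difference from all coding genes was not tested. The KCNA family of Shaker-type channels, also of 8 genes, had 1 (KCNA7) within 10 kb of a peak in any list and 4 within 100 kb. Those other than KCNA7 all lay within 100 kb of the same overexpressed Millipore peak. Of all coding genes, 35.2% had a peak within 10 kb in any list and 79.9% within 100 kb. In the KCNQ family, which carries the slow M-type and cardiac currents, KCNQ5 had peaks within its body, while KCNQ1 and KCNQ3 had none.

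The 8 pore subunits of families named for activation by calcium or sodium often had peaks inside the gene in 3 of the lists. In the overexpressed Millipore list 7 of 8 had a peak inside the body, 22 peaks in all, against 23.8% of all coding genes, and KCNN4 was the exception. In the basal Millipore list it was 4 of 8 against 9.41%, in the overexpressed Perseus list 4 against 17.9%, and in the basal Perseus list 2 against 15.6%. These genes are long, with a median of 162 kb, the longest median of the roles. Within 10 kb of the start 3 of the 8 (KCNN1, KCNN4 and KCNT1) had a peak in any list, a share of 37.5%, close to the 35.2% of all coding genes.

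The leak channels and inward rectifiers had fewer members near a peak at 10 kb, while inside the gene they differed from each other. Of 15 KCNK genes, 3 (KCNK3, KCNK4 and KCNK7) had a peak within 10 kb in any list and 2 (KCNK3 and KCNK13) inside the body, 20.0% and 13.3%, where all coding genes had 35.2% and 38.9%. Of 15 KCNJ genes, 3 (KCNJ1, KCNJ8 and KCNJ14) had one within 10 kb and 6 inside the body, 20.0% and 40.0%. Neither family had a peak within 10 kb or inside a gene in the basal Millipore list. In that list the shares of all coding genes were low too, 4.38% and 9.41%. At 100 kb both families reached 12 of 15 in any list, 80.0%, against 79.9% of all coding genes.

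Among the auxiliary subunits of the voltage-gated channels, 5 of 12 (KCNAB1, KCNE1, KCNIP1, KCNIP3 and KCNIP4) had a body peak in any list. That is 41.7%, close to the 38.9% of all coding genes. Within 10 kb of the start 1 (KCNIP4) had a peak in any list, 8.33% against 35.2% of all coding genes. KCNIP4, a calcium-binding partner of the A-type channels, is 1220 kb long, and its only peak within 10 kb of the start lay 0.530 kb upstream in the overexpressed Millipore list. Of the 4 BK auxiliary genes, KCNMB2 and KCNMB3 had a peak within 10 kb and inside the body. KCNRG, a soluble protein that interferes with channel assembly, had 1 peak within 100 kb in each Perseus list and none with Millipore.

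In all, 74 of 95 members (77.9%) had a peak within 100 kb or inside the gene in at least 1 list, against 81.5% of all coding genes. The other 21 had none in any list, among them KCNA1, KCNA4, KCNA5, KCNA6, KCNAB2, KCNC1, KCND1, KCNE4, KCNE5, KCNIP2, KCNJ3, KCNJ11, KCNJ16, KCNK1, KCNK5, KCNK9, KCNQ1, KCNQ3, KCNS1 and KCNV2. KCNJ11 is the pancreatic ATP-sensitive channel and KCNK9 the TASK-3 leak channel.

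**Figure D3:**
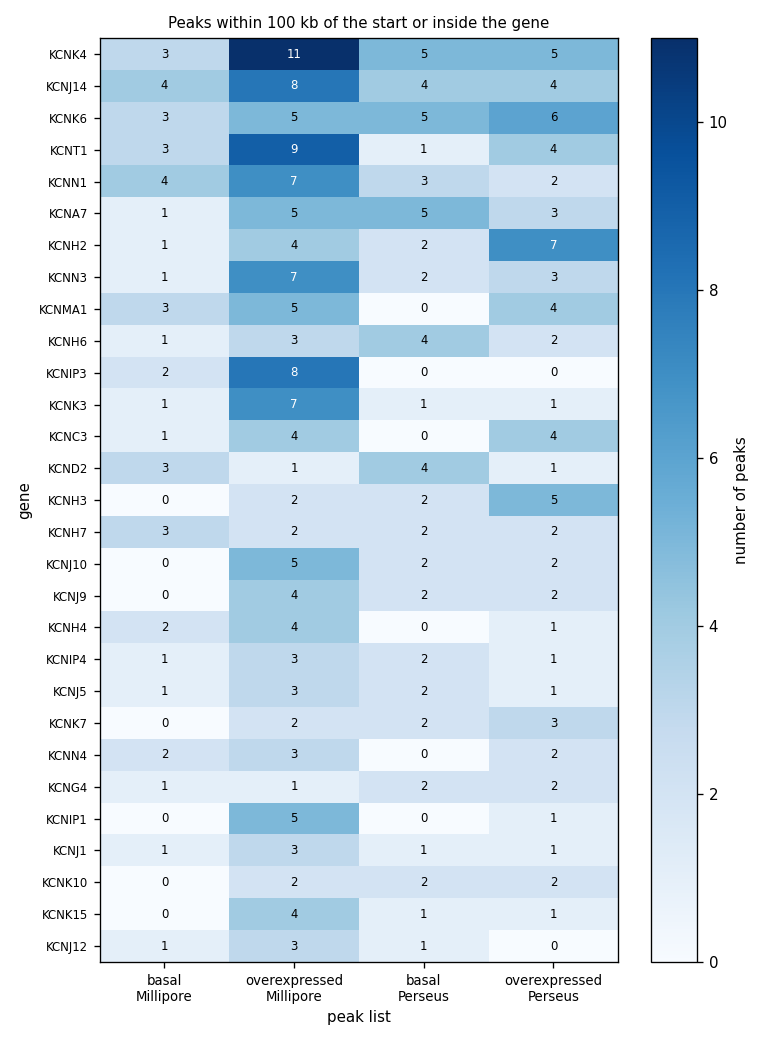
Number of peaks within 100 kb of the start or inside the gene in each of the 4 lists, for 29 KCN genes with at least 5 such peaks over the lists, sorted by their sum. KCNK4 leads with 3, 11, 5 and 5 peaks, and KCNIP3 has 2 and 8 with Millipore and 0 and 0 with Perseus.

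The counts at KCNK4, a mechanosensitive leak channel also called TRAAK, show what a 100 kb window can hold. With Millipore it had 3 peaks at basal and 11 at overexpressed dosage, and 5 in each Perseus list. Its surroundings carry 17 other coding starts within 100 kb, and the nearest coding start to each of these peaks belonged to another gene, such as GPR137, RPS6KA4 or BAD. The same held at KCNK6, with 3, 5, 5 and 6 peaks among 11 other coding starts. Peaks beside a member here means those within 100 kb of its start or inside it. For these, the nearest coding start was a member for 19 of 57 peaks in the basal Millipore list, 63 of 162 in the overexpressed Millipore list, 23 of 70 in the basal Perseus list and 32 of 88 in the overexpressed Perseus list. Most peaks beside a member were thus nearer to the start of another gene.

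The 6 genes known for a role in the adrenal cortex differed widely, from 12 peaks over the lists at KCNMA1 to none at KCNJ3 and KCNK9. KCNJ5 (chromosome 11, 128761251 to 128791058, plus strand) had 1 peak in the basal Millipore list, 33.9 kb downstream of its start and so past the end of the 29.8 kb gene. It ranked 565 of 4393 (the authors' rank begins at 1) and held the SF-1 consensus printed above, and the nearest coding start was that of TP53AIP1, 18169 bp away. The basal Perseus list had an overlapping peak at rank 5699 and a second peak 91.9 kb downstream, also nearer to TP53AIP1. Neither overexpressed list had a peak at either place. At overexpressed dosage KCNJ5 instead had 3 Millipore peaks, 11.3 kb and 59.6 kb upstream and 28.9 kb downstream in an exon, and 1 Perseus peak 31.3 kb upstream. The Perseus peak and the farther upstream Millipore peak were nearest to the start of KCNJ1, the exonic one to TP53AIP1 and the remaining one to KCNJ5 itself. None of these 4 held the consensus, and no KCNJ5 peak was shared between dosages with the same antibody.

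KCNK3 had 1, 7, 1 and 1 peaks in the basal Millipore, overexpressed Millipore, basal Perseus and overexpressed Perseus lists. The basal Perseus peak lay in its first kilobase, 0.785 kb downstream of the start in an intron, at rank 570 of 6616, and overlapped no peak of the other lists. With SF-1 overexpressed, 3 Millipore peaks fell in introns between 15.1 and 17.3 kb downstream. A peak 79.7 kb upstream of KCNK3 was found by both antibodies at overexpressed dosage and held the SF-1 consensus, but the nearest coding start was that of CIB4.

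KCNMA1, 769 kb long, had 3, 5, 0 and 4 peaks in the same order. The best ranked, 161 of 4393 in the basal Millipore list, lay in an intron 271 kb from the start. One intronic site 474 kb from the start was found by both antibodies at overexpressed dosage and held the SF-1 consensus in both. KCNK2 had a single peak, 77.8 kb upstream at rank 7424 of 7453 in the overexpressed Perseus list. KCNK9 and KCNJ3, a partner subunit of other inward rectifiers, had none. Their nearest peaks in any list were 158 kb from KCNK9 and 223 kb from KCNJ3.

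The 2 members with a peak within 10 kb of the start in every list, KCNH7 and KCNN1, differed in whether that was 1 site. KCNH7 (chromosome 2, 163227917 to 163695277, minus strand), a voltage-gated channel of the nervous system, had a Millipore peak 2.00 kb upstream at basal and 2.05 kb upstream at overexpressed dosage. These overlapped and held both NRSF/REST matches printed above. Their rank was 314 of 4393 at basal and 44 of 11910 at overexpressed dosage. The Perseus peaks lay elsewhere, 8.37 kb upstream at basal dosage (rank 5180 of 6616) and 0.323 kb upstream at overexpressed dosage (rank 3107 of 7453), and held neither consensus. So KCNH7 had 3 separate sites near its start, and the antibodies shared none of them.

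KCNN1 (chromosome 19, 18062102 to 18110894, plus strand) had one site in common to all 4 lists, 8.48 kb upstream of the start and inside the neighbouring gene CCDC124. Its rank was 1178 and 11055 with Millipore at basal and overexpressed dosage, and 507 and 1678 with Perseus. Rank 11055 of 11910 is near the end of its list. Because the lists differ in length, their ranks cannot be set against each other directly. The peaks closer to the KCNN1 start were each in 1 list. They lay 0.102 kb upstream in the overexpressed Perseus list, 0.977 kb upstream in the overexpressed Millipore list, and in introns 1.45 and 1.77 kb downstream in the basal Millipore list.

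KCNN4 (chromosome 19, 44270685 to 44285128, minus strand), the intermediate-conductance calcium-activated channel, had the best-ranked basal Millipore peak of any member, 48 of 4393. It lay 8.20 kb upstream of the start within LYPD5, carried 1 NRSF/REST match, and was found again at overexpressed dosage at rank 500. The Perseus antibody had no peak there. Its overexpressed list had a peak 4.32 kb upstream of KCNN4, at rank 4386, and shared with the overexpressed Millipore list a site 82.7 kb downstream that held the SF-1 consensus and lay nearer to IRGC.

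KCNT1 (chromosome 9, 138594031 to 138687354, plus strand), a sodium-activated channel, had no peak shared between dosages with the same antibody. At basal dosage both antibodies found an intronic site with the SF-1 consensus, 3.34 kb from the start and at rank 464 with Millipore, 3.32 kb and rank 2636 with Perseus. At overexpressed dosage neither list had it. Both then had a site 10.8 kb (Millipore, rank 127 of 11910) or 10.7 kb (Perseus, rank 874 of 7453) from the start, without the consensus. The overexpressed Perseus list also had a peak 156 bp upstream of the start, where the overexpressed Millipore list had none. In the overexpressed Millipore list 9 peaks lay inside KCNT1, the most of any member in that list. For every peak inside KCNT1 the nearest coding start was that of SOHLH1, which lies close to that of KCNT1.

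**Figure D4:**
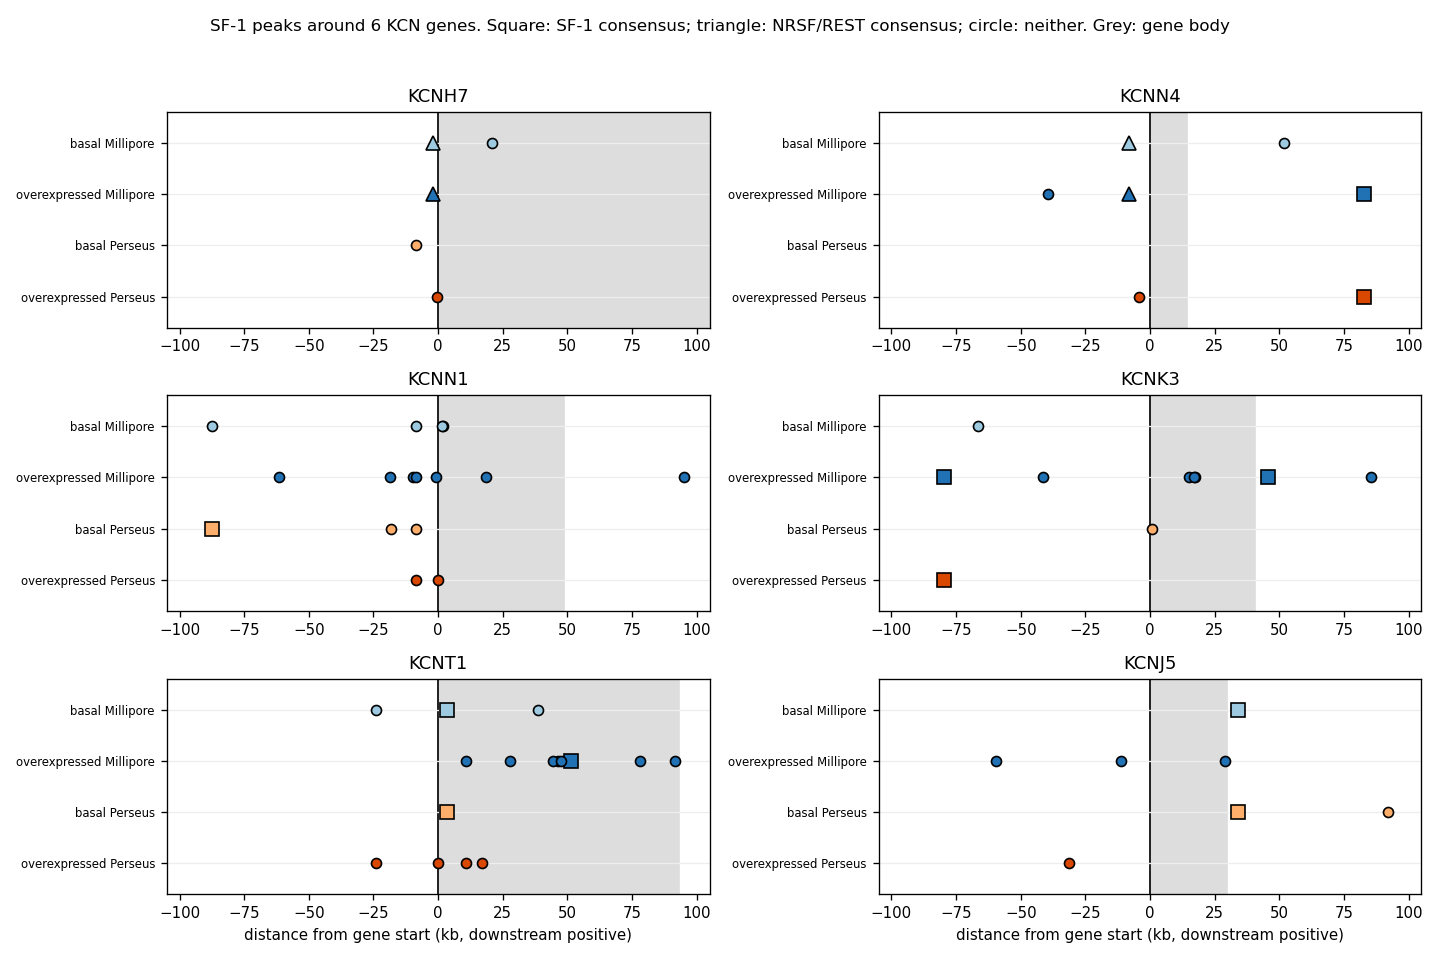
SF-1 peaks around 6 KCN genes as distance of the peak centre from the gene start in kb, downstream positive, with a row for each list. Squares hold the SF-1 consensus, triangles the NRSF/REST consensus and circles neither, and grey marks the gene body. The triangles at KCNH7 and KCNN4 are in the Millipore rows only, the square 79.7 kb upstream of KCNK3 is in both overexpressed rows and the site 8.48 kb upstream of KCNN1 is in all 4.

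Other genes reached the named set through rank or number. KCNH3 had a site upstream of its start in both Perseus lists, 1.56 kb at basal (rank 1428) and 1.59 kb at overexpressed dosage (rank 5269), and a separate Millipore peak 0.563 kb upstream at overexpressed dosage (rank 9563). KCNJ8 had an overlapping Perseus peak at both dosages, 0.959 and 0.884 kb downstream of its start, at ranks 646 and 1043, and no Millipore peak within 100 kb. KCNC2, a fast delayed rectifier, had an intronic site 89.4 kb from its start with the SF-1 consensus, at rank 113 of 4393 with Millipore and 1237 of 6616 with Perseus. It was found at basal dosage only. KCNH2 had a site 76.6 kb downstream of its start, past the gene's end, in both Perseus lists, which held the consensus, at rank 1404 at basal and 474 at overexpressed dosage.

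Others lay nearer to other genes. KCNJ14, an inward rectifier, had 4, 8, 4 and 4 peaks in the same order of lists, among them a site in all 4 lists 64.8 kb upstream that was 733 bp from the start of KDELR1. Its best rank, 79 of 11910, belonged to a peak 98.7 kb downstream near SULT2B1. KCNJ4 had a peak with the SF-1 consensus 42.4 kb from its start in the basal Perseus list, at rank 387, that overlapped one of the overexpressed Millipore list at rank 9240. KCNA7 had a peak at rank 536 of 6616 in the basal Perseus list, 80.5 kb from its start within GYS1. KCNK15 had a site near CCN5 in 3 lists, 30.9 kb upstream of KCNK15 and at rank 202 of 7453 in the overexpressed Perseus list. KCNIP3 had 2 and 8 Millipore peaks and none with Perseus. All 10 lay within 1 Mb of a long run of unknown bases of the assembly, and whether that position bears on them was not tested. One of them, 90.2 kb upstream at rank 1464 of 11910, held an NRSF/REST match with 4 mismatches and was 344 bp from the start of ZNF892.

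Most of the peaks beside members were in 1 list only. Of 57 in the basal Millipore list, 43 (75.4%) overlapped no peak of another list by as much as 1 bp, beside 79.1% of the whole list. In the overexpressed Millipore list it was 139 of 162 (85.8%, whole list 83.4%), in the basal Perseus list 41 of 70 (58.6%, whole list 62.3%) and in the overexpressed Perseus list 55 of 88 (62.5%, whole list 62.1%). These shares were close to those of the whole lists. The sites in all 4 lists were 3, those of KCNN1 and KCNJ14 given above and one 82.6 kb upstream of KCNN3, another small-conductance channel. In the same order of lists, they made up 5.26%, 1.85%, 4.29% and 3.41% of the peaks beside members. Of the whole lists, 3.78%, 1.38%, 2.43% and 2.23% of peaks were in all 4, and the difference was not tested.

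With the Millipore antibody 6 of 57 basal peaks beside members (10.5%, whole list 12.4%) were found at overexpressed dosage, at KCNH7, KCNJ14, KCNK4, KCNN1, KCNN3 and KCNN4. Of these 6, 2 held the NRSF/REST consensus and 1, at KCNN3, the SF-1 consensus. With the Perseus antibody 22 of 70 were found again (31.4%, whole list 29.5%), 5 of them with the SF-1 consensus and 0 with the NRSF/REST consensus. The share with each consensus among all basal peaks kept at overexpressed dosage was not computed, so these counts have no comparison.

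By gene at 10 kb, 3 members had a peak at both dosages with Millipore (KCNH7, KCNN1 and KCNN4), which is 60.0% of the 5 at basal and 23.1% of the 13 at overexpressed dosage. For all coding genes the shares were 43.8% and 10.1%. With Perseus, 7 members had a peak at both, among them KCNH3, KCNH7, KCNJ8, KCNK4, KCNN1 and KCNT1. They are 63.6% of the 11 at basal dosage and 7 of the 14 at overexpressed dosage, against 54.2% and 49.1% for all coding genes. Both antibodies had a peak near 3 members at basal dosage (KCNH7, KCNN1 and KCNT1). They are 60.0% of the members with a Millipore peak and 27.3% of those with a Perseus peak. For all coding genes these shares were 42.6% and 12.1%. At overexpressed dosage both antibodies had a peak near 6 members, among them KCNH3, KCNH7, KCNK4, KCNN1 and KCNN4. They are 46.2% and 42.9%, against 39.3% and 43.6% for all coding genes. As KCNH7 shows, a gene in both lists need not share a site.

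The SF-1 consensus was present in 7 of 57 peaks beside members in the basal Millipore list (12.3%, 6.08 to 23.2), against 16.0% of all its peaks. It was present in 20 of 162 (12.3%, 8.14 to 18.3) in the overexpressed Millipore list, against 10.9%, in 14 of 70 (20.0%, 12.3 to 30.8) in the basal Perseus list, against 21.6%, and in 12 of 88 (13.6%, 7.98 to 22.3) in the overexpressed Perseus list, against 17.2%. Each interval contained the share of the whole list. Windows of the same width 5 kb to each side of these peaks held it in 1.75%, 2.47%, 2.14% and 4.55%.

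The NRSF/REST consensus was found in 2 of 57 basal Millipore peaks beside members (KCNH7 and KCNN4), against 1.12% of the whole list, and in 3 of 162 overexpressed Millipore peaks (KCNH7, KCNN4 and KCNIP3), against 0.739%. It was found in 0 of 70 and 0 of 88 Perseus peaks beside members, where counting error allows up to 5.20% and 4.18%, and in 0.181% and 0.268% of the whole Perseus lists. The numbers are too small to set the antibodies apart at these genes. The KCNH7 and KCNN4 peaks ranked near the top of both Millipore lists, between 0.369% and 7.15% of the way down.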

How the data were processed

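The measured quantity was the position of SF-1 peaks in 4 lists, each from 3 pooled libraries of H295R/TR SF-1 cells, with 2 input libraries as control. According to their methods the authors mapped reads to hg19 with ELAND v2 and called peaks against input with the SeqPeak algorithm of CisGenome v2, and the labels list CASAVA 1.6. Duplicate handling and the depth behind each list are not given in the sources used here, and a deeper library yields more and weaker peaks. The authors deposited each peak's position, a rank and a constant score of 1000. The ranked quantity is not stated, so ranks only order peaks within a list. Starts fell on a grid of 50 bp.

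Peaks were compared with GRCh37 (the hg19 build) and GENCODE version 44 mapped to it, with 64449 genes on 24 chromosomes. A gene start was the outermost annotated end of the gene, distances were taken from peak centres, and an overlap of 1 bp or more made peaks of different lists shared. Coordinates are 1-based. The members and lists were chosen with earlier results of these data known. Named genes were an adrenal list (KCNJ3, KCNJ5, KCNK2, KCNK3, KCNK9 and KCNMA1), members with a peak within 1 kb in 2 or more lists or within 10 kb in 3 or more, the 3 members with the best-ranked peak and the member with the most peaks in each list, and members with an NRSF/REST match. Some members are counted but not reported singly here. Neighbouring members can share a peak. In the basal Millipore, overexpressed Millipore, basal Perseus and overexpressed Perseus lists, 1, 11, 4 and 3 peaks lay beside more than 1 member. The intervals over genes take no account of this sharing. No set of genes was drawn at random. Members were set beside all coding genes, weighted to the members in 5 classes of promoter GC or gene length. Counting and sequence searches were tested on simulated data. The software was Python 3.11.15, numpy 2.4.6, pysam 0.24.0 and matplotlib 3.10.9.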

Additional observations from a re-analysis of the deposited data

Results flagged for a closer look

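At 4 of the genes named the number of peaks within 100 kb or inside the gene moved in opposite directions with dosage between the antibodies. From basal to overexpressed dosage KCNA7 changed by 4 peaks with Millipore and by -2 with Perseus. KCNJ4 changed by 1 and -2, KCNJ5 by 2 and -1, and KCNN1 by 3 and -1. Members outside the named set moved in opposite directions too, among them KCNH6, KCNIP4 and KCNAB1. How often this held over all coding genes was not computed. With 1 list per group the difference between antibodies was not tested. The overexpressed Millipore list also holds 11910 peaks against 4393 at basal dosage, while the Perseus lists hold 7453 and 6616, and the part of list length in these changes was not tested.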

How the results depend on the processing

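Of 108 alternative member shares, 94 stayed within counting error. With the better-ranked 50% of each list, the overexpressed Millipore share became 1.05% at 1 kb (4.42% of all coding genes at that setting), 40.0% at 100 kb (42.9%) and 23.2% in the body (14.2%). The basal Perseus share became 6.32% at 10 kb (9.51%), 22.1% at 100 kb (31.2%) and 7.37% in the body (8.84%), the overexpressed Perseus share 5.26% at 10 kb (10.4%) and 7.37% in the body (10.4%), and the basal Millipore share 18.9% at 100 kb (17.6%). With every list cut to its best 4393 peaks, the overexpressed Millipore share was 1.05% at 1 kb (3.26%), 35.8% at 100 kb (35.6%) and 20.0% in the body (11.0%), the basal Perseus share 24.2% at 100 kb (37.2%), and the overexpressed Perseus share 11.6% in the body (11.8%). Both settings use fewer peaks. Members with peaks at both dosages numbered 0 at 1 kb and 22 at 100 kb with Millipore, and 1 and 23 with Perseus, where both stricter settings left 3. Members with peaks by both antibodies numbered 0 and 17 at basal and 1 and 29 at overexpressed dosage, with 1 left in the better-ranked lists and 3 in lists of equal length. At 100 kb the 17 were 56.7% of members with a Millipore peak and 53.1% of those with a Perseus peak. For all coding genes these shares were 65.7% and 42.7%. The 29 were 58.0% and 80.6%, against 66.2% and 79.4%. At 1 kb the overexpressed shares were 25.0% and 20.0%, against 38.8% and 30.3%. These shares of all coding genes were not computed at the stricter settings.

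With 1 mismatch allowed the SF-1 consensus was in 26.3% and 43.8% of Millipore peaks beside members, at basal and overexpressed dosage. The whole lists had 34.6% and 42.2%. For Perseus peaks beside members it was 45.7% and 46.6%, against 44.7% and 46.8% of the whole lists. The core alone was in 8.02% (overexpressed Millipore, whole list 6.39%) and 11.4% (basal Perseus, whole list 14.4%). Of the 16 overexpressed Millipore peaks within 10 kb of a start, 4 held the consensus (25.0%, 10.2 to 49.5), against 10.9% of the whole list. With 5 mismatches NRSF/REST matches rose to 5 of 162 peaks in the overexpressed Millipore list (3.09%, 1.33 to 7.02), against 1.75% of the whole list. They rose to 5 of 70 in the basal Perseus list (7.14%, 3.09 to 15.7), against 1.24%. In the overexpressed Perseus list it was 3 of 88 (3.41%, 1.17 to 9.55), against 1.30%. Of these intervals only the basal Perseus one lay above the share of its whole list. With promoters of 300 bp, the weighted shares of all coding genes were 11.2% at 1 kb (overexpressed Perseus), 19.8%, 15.9% and 17.9% at 10 kb and 62.4%, 47.5% and 51.7% at 100 kb (overexpressed Millipore, basal Perseus and overexpressed Perseus). Weighting to neighbouring starts, added after seeing the data, gave 28.0%, 55.8%, 41.5% and 45.0% at 100 kb.

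No paired analysis was possible because each group is a single pooled list. Pooling left no spread between libraries to set a difference against. The depth of the lists is unknown, and a missing peak was below the authors' threshold rather than shown absent. Expression of the channel genes was not analysed here.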
